A study of Arabidopsis thaliana with 6 samples.

Results

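WRKY53 and WRKY6 are transcription factors of leaf senescence, and their transcripts were followed in rosette leaves of the Arabidopsis thaliana line pho3 and of its wild-type background. The probe sets were chosen by name: a probe set of the array was kept when the platform annotation assigned it to 1 gene and that gene was WRKY6 or WRKY53. This gave 2 of the 22810 probe sets, or 2 of the 13286 genes that have a named probe set of their own and a RefSeq locus: 254231_at for WRKY53 (locus AT4G23810) and 264746_at for WRKY6 (locus AT1G62300).

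The 3 pho3 samples came from a Feldmann T-DNA insertion line in the Ws-2 background, and the 3 wild-type samples from Ws-2 itself. All plants were stratified for 3 days at 4 °C and grown at 23 °C and 60% humidity under a cycle of 16 h light and 8 h dark. They spent 10 days on half-strength Murashige and Skoog medium with 1% sucrose and were then moved to compost, and rosette leaves were taken at growth stage 6.0. The labels give 1 insertion line and do not name the interrupted gene. From background knowledge it is SUC2, the sucrose transporter of phloem loading, for which no probe set is named here, so the line was not checked by its target. The labels do not say whether replicates were separate plants, so p-values measure only sample-to-sample spread, part or all of it possibly technical.

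WRKY proteins bind the W-box, a short promoter element, through a zinc-finger domain that carries the amino acids of their name. WRKY53 is known as an early regulator of leaf senescence: its transcript rises before leaves yellow, and plants that lack it senesce late. WRKY6 is induced in senescing and in pathogen-challenged leaves, and is also known for repressing the phosphate exporter gene PHO1. The first belongs to WRKY group III and the second to group IIb.

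The values are MAS5 signals, linear intensities scaled so that each array's trimmed mean is about 100.0, with array medians between 40.4 and 44.2. A dim signal says little about level, so the 40th percentile of each array, between 26.2 and 28.4, served as the signal floor. The array labelled wild-type replicate 1 lay away from its group. The spread of its log2 differences (scaled median absolute deviation over 13983 probe sets tested) was 0.31 against pho3 replicates 1 and 2. Against pho3 replicate 3 it was 0.27, the lowest for either of these arrays. Against the other wild-type arrays the same spread was 0.47 and 0.48. The array labelled pho3 replicate 3 lay at 0.43 and 0.44 from the other pho3 arrays, and at 0.35 and 0.37 from wild-type replicates 2 and 3. Whether labels were exchanged cannot be settled from these files, and an exchange would change every group mean and fold below. Results are therefore given with and without these arrays, and directions follow the labels as they stand.

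The tissue label was checked with photosynthetic genes. Of 8 leaf markers, 6 had a probe set of their own, and all 6 read far above the floor on every array, with a summed signal of 9991 to 14396 in pho3, against 12909 to 16607 in wild type. Of 5 root markers only EXPA7, a root hair expansin, was named, and it lay under the floor on 5 of 6 arrays. The guard cell factor FMA read 40.9 to 50.2 in pho3, against 48.6 to 63.7 in wild type. No flower, seed, phloem or xylem marker of the lists had a named probe set. In whole leaves, fewer cells of a type and less RNA per cell cannot be told apart.

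The comparison of pho3 with wild type asked whether these senescence factors differ between the lines. WRKY53 had the higher mean in pho3, by 1.86-fold as a ratio of geometric means, and so did WRKY6, by at least 1.61-fold. Neither difference passed the test over all 6 arrays, a limma adjusted p under 0.05; a gene that passes is called below. Both genes were high on pho3 replicates 1 and 2 and on the array labelled wild-type replicate 1, and lowest on wild-type replicates 2 and 3.

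The WRKY53 signal was 90.4, 89.1 and 58.9 in pho3 (replicates 1, 2 and 3), against 77.0, 31.9 and 30.2 in wild type (replicates 1, 2 and 3). The groups overlapped through a single pair of arrays: the array labelled wild-type replicate 1 read above pho3 replicate 3. WRKY53 lay above the floor on all 6 arrays, at 2.12 to 3.36 times the floor in pho3. On wild-type replicates 2 and 3 it was at 1.12 and 1.15 times the floor. Both signals lay under the 50th percentile of their arrays, 42.4 and 40.4, and the fold of WRKY53 was not bounded at that level.

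In order of level, pho3 replicates 1 and 2 differed by a ratio of 1.01, and the array labelled wild-type replicate 1 came next, 1.16 times lower. Both steps were near the usual difference between arrays. For probe sets with a mean signal of 80 to 160, pho3 replicates 1 and 2 had a median ratio of 1.11. The next step down, to pho3 replicate 3, was 1.31-fold. The widest step, 1.85-fold, separated pho3 replicate 3 from wild-type replicate 2, and wild-type replicates 2 and 3 then differed by a ratio of 1.06. The widest step thus lay below 4 arrays, 1 of them labelled wild type, and above 2 wild-type arrays.

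WRKY53 averaged 79.5 ± 17.8 in pho3, against 46.3 ± 26.6 in wild type (SD, n = 3 each). The log2 difference was 0.89 with an SE of 0.39, and limma gave an adjusted p of 0.375 and an unadjusted p of 0.0546. The exact permutation test, two-sided, gave p = 0.2, where 3 against 3 arrays allow no p below 0.1. Each pho3 array read 1.85 to 2.84 times wild-type replicate 2 and 1.95 to 3.00 times wild-type replicate 3. Against the array labelled wild-type replicate 1 the ratios were 0.765 to 1.17. In 8 of the 9 pairs of arrays pho3 was higher.

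WRKY6 was dim in wild type. Its signal was 81.5, 59.5 and 36.3 in pho3 (replicates 1, 2 and 3), against 56.2, 25.1 and 11.1 in wild type (replicates 1, 2 and 3). All 3 pho3 arrays read above the floor, at 2.95, 2.24 and 1.31 times its level. Among wild-type arrays only replicate 1 did, at 2.00 times the floor. Wild-type replicates 2 and 3 read 0.883 and 0.425 times the floor, so WRKY6 has only an upper limit on those arrays, 28.4 and 26.2. It passed the filter on low values with 4 arrays above the floor, 3 of them pho3.

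As for WRKY53, pho3 replicates 1 and 2 were highest, followed by the array labelled wild-type replicate 1 and then pho3 replicate 3, with wild-type replicates 2 and 3 below them. WRKY6 has no order between wild-type replicates 2 and 3, as both lay under the floor. With each of these set to its floor, the array labelled wild-type replicate 1 read at least 1.98 and 2.15 times as high as wild-type replicates 2 and 3. In those 2 pairs, 90% of probe sets with a mean signal of 20 to 40 had ratios up to 1.97 and 1.98, so the first bound lay at that limit and the second a little above it.

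WRKY6 averaged 59.1 ± 22.6 in pho3, against 30.8 ± 23.1 in wild type (SD, n = 3 each), with geometric means of 56.0 and 25.1. The fitted log2 difference was 1.16 with an SE of 0.59, and limma gave an adjusted p of 0.375 and an unadjusted p of 0.0922. The exact permutation test, two-sided, again gave p = 0.2. With the dim wild-type arrays set to the floor and wild-type replicate 1 at its own signal, the wild-type mean is at most 34.7, and pho3 was at least 1.61-fold higher. Set against the floor alone, at 27.6, the pho3 mean was 2.03-fold over it, but this ignores that wild-type replicate 1 was measured above the floor.

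**Figure D1:**
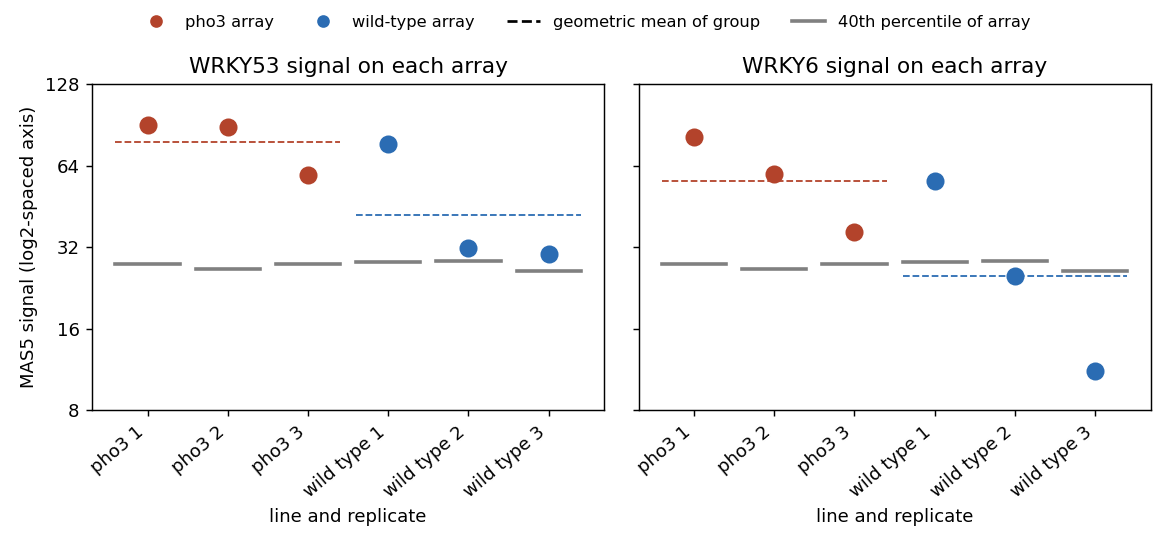
MAS5 signal (log2-spaced axis) of WRKY53 and WRKY6 on each of the 3 pho3 and 3 wild-type arrays, with the geometric mean of each group (dashed) and the 40th percentile of each array (grey bars). For both genes the array labelled wild-type replicate 1 lies above pho3 replicate 3, and for WRKY6 wild-type replicates 2 and 3 lie under the floor at 25.1 and 11.1.

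These differences were read against all probe sets tested. Over the 6 arrays 0 of 13983 were higher in pho3 (0%) and 0 lower (0%) by limma's adjusted p. By the unadjusted p under 0.05, 807 were higher (5.77%) and 678 lower (4.85%), and neither WRKY gene was among them. In either direction, a log2 difference at least the size of that of WRKY53 was reached by 7.02% of the probe sets tested. For WRKY6 the share was 4.16% at its fitted difference, which uses wild-type signals under the floor, and 12.1% at its bound. The other probe sets were not set to a floor, so the share at the bound cannot be set beside that of WRKY53. The unadjusted p was as small as that of WRKY53 for 12.4% and as small as that of WRKY6 for 24.6%.

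Leaving out the array labelled wild-type replicate 1 gave WRKY53 a call and left WRKY6 without one. WRKY53 was then 2.52-fold higher in pho3 (log2 difference 1.33, SE 0.23, limma adjusted p = 0.0313), with a mean of 79.5 in pho3 and 31.0 on wild-type replicates 2 and 3. In that fit 4.61% of probe sets were called higher and 0.837% lower. WRKY6 had a fitted log2 difference of 1.74 (SE 0.45, adjusted p of 0.0702 by limma), and with both remaining wild-type arrays at the floor it was at least 2.05-fold higher. A call for WRKY53 and none for WRKY6 does not show that the genes differ in response, and that difference was not tested. The array left out was singled out because it lay away from its labelled group, and it read highest of the wild-type arrays for both genes. The WRKY53 call is therefore no separate evidence. Leaving out any other single array gave no call for either gene.

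With both wild-type replicate 1 and pho3 replicate 3 left out, both genes were called higher in pho3. The log2 difference was 1.53 (SE 0.16, adjusted p of 0.00215 by limma) for WRKY53. For WRKY6 the fitted log2 difference was 2.06 (SE 0.42, limma adjusted p = 0.0141). Both wild-type WRKY6 signals in that fit lay under the floor, so its p does not test a bound. Against the floor WRKY6 was at least 2.55-fold higher. In this fit 18.2% of all probe sets were called higher and 16.5% lower, so a call was common. Array weights in limma were 0.367 for wild-type replicate 1 and 0.443 for pho3 replicate 3, below those of the other arrays. They also called both genes, at 1.30 for WRKY53 (adjusted p = 0.0259) and 1.63 for WRKY6 (adjusted p = 0.0327). There 16% of probe sets were called higher and 14.5% lower. Both settings leave out or down-weight the arrays that lie away from their labelled group, so these calls are no separate evidence.

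**Figure D2:**
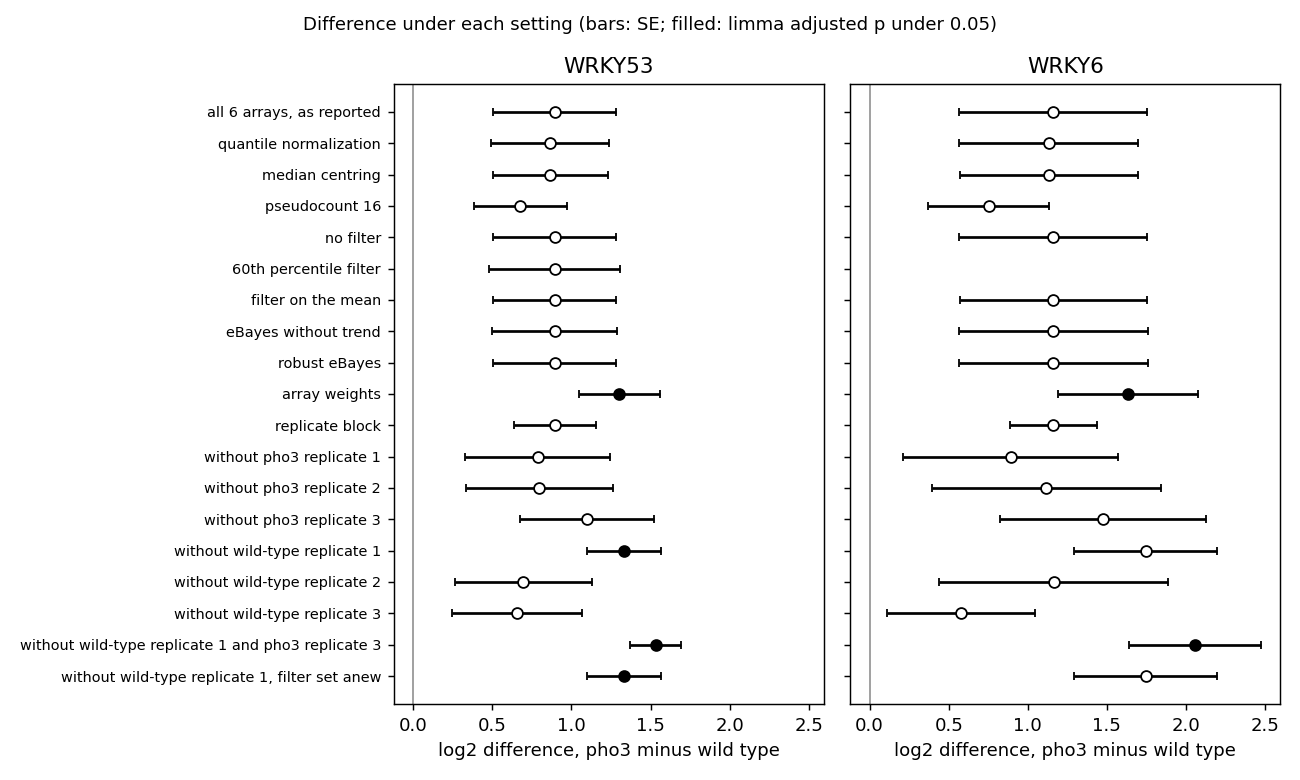
Log2 difference (pho3 minus wild type, with SE) of WRKY53 and WRKY6 under each setting; filled points had a limma adjusted p under 0.05. All differences are above 0, from 0.65 to 1.53 for WRKY53 and from 0.58 to 2.06 for WRKY6, and every filled point drops or down-weights the array labelled wild-type replicate 1. For WRKY6, dropping that array alone left the point open; its values are as fitted, with 2 wild-type signals under the floor, and it was not tested under the 60th percentile filter.

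A measure of RNA quality had a similar order over the arrays. The ratio of the 3-prime to the 5-prime actin control probe set, which rises with degraded RNA, was 4.75, 5.24 and 3.46 in pho3, against 4.23, 2.18 and 2.26 in wild type. The 4 arrays with the higher WRKY53 and WRKY6 signals were also those with the higher actin ratios. Photosynthetic genes ran the opposite way: the Calvin cycle enzyme SBPASE read 955, 1110 and 1984 in pho3, against 1546, 2357 and 1992 in wild type. All 6 leaf markers measured had a lower mean in pho3, and their median log2 difference was -0.43. Of these 0 were called over 6 arrays (0% of all probe sets), and all 6 were called lower without wild-type replicate 1 and pho3 replicate 3, where 16.5% of all probe sets were. The part of RNA quality or of leaf cell content in the WRKY differences was not tested.

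The other WRKY genes with a named probe set of their own were looked at next. There were 5, of which 4 passed the filter on low values. As 8730 probe sets are unnamed here, any WRKY genes among them were not seen, and these 5 are no survey of the family. WRKY42, of group IIb like WRKY6 and known for phosphate homeostasis, was under the floor on all 6 arrays, with 2.26, 2.16 and 3.56 in pho3, against 5.96, 12.5 and 3.43 in wild type. No difference can be read from values that far below the floor.

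WRKY47, the other group IIb gene measured, had 55.0, 63.4 and 62.6 in pho3, against 55.5, 65.9 and 62.9 in wild type. Its groups lay on top of each other, with a log2 difference of -0.03 (SE 0.14, adjusted p of 0.925 by limma). WRKY22, a group IIe factor of flagellin signalling and dark-induced senescence, had 28.1, 35.0 and 47.0 in pho3, against 29.8, 42.1 and 38.2 in wild type. Its log2 difference was -0.02 (SE 0.25, adjusted p of 0.971 by limma).

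Both group I genes had small differences. WRKY20 had 90.4, 85.7 and 120 in pho3, against 95.5, 130 and 124 in wild type, a log2 difference of -0.24 (SE 0.19, adjusted p of 0.489 by limma). ZAP1, which RefSeq also lists as WRKY1, had 141, 153 and 118 in pho3, against 122, 101 and 101 in wild type. Its log2 difference was 0.34 (SE 0.16, adjusted p of 0.375 by limma). On both genes pho3 replicate 3 read on the wild-type side of wild-type replicate 1.

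Of the 6 WRKY genes tested, 0 were called over the 6 arrays. For 3 the mean was higher in pho3 and for 3 lower, with a median log2 difference of 0.16, against -0.0015 over all probe sets tested. These counts include WRKY53 and WRKY6. Of the other 4 genes, 1 had a higher mean in pho3 and 3 a lower one, with a median of -0.022. The groups overlapped for all 6 genes, where 5.31% of all probe sets were higher and 5.81% lower without overlap. Over the 6 arrays the differences of WRKY53 and WRKY6 were the largest of the 6 genes. Without wild-type replicate 1 only WRKY53 was called, higher as were 4.61% of all probe sets, with 0.837% lower. Without that array and pho3 replicate 3, ZAP1 was called higher and WRKY20 lower beside WRKY53 and WRKY6, where 18.2% of all probe sets were called higher and 16.5% lower.

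Other genes of senescence and salicylic acid defence had few named probe sets: 4 of 66 listed genes, all tested. SAG29, the sugar transporter SWEET15 of senescing leaves, had 395, 581 and 273 in pho3, against 416, 76.3 and 13.0 in wild type. It shared the high reading on the array labelled wild-type replicate 1 with both WRKY genes. On wild-type replicate 3 it lay under the floor, so its fold is a bound. With that array at the floor SAG29 was at least 4.23-fold higher in pho3, and at least 8.89-fold higher without wild-type replicate 1. The fitted log2 differences were 2.42 (adjusted p of 0.375 by limma) and, without wild-type replicate 1, 3.66 (limma adjusted p = 0.0392). These p-values use the signal under the floor and do not test the bounds.

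SAG101, a lipase-like protein that acts with EDS1 in defence and is a described WRKY53 target, had 81.8, 82.8 and 45.3 in pho3, against 55.6, 33.1 and 38.8 in wild type. Here too the groups overlapped, with a log2 difference of 0.70 (SE 0.30, adjusted p of 0.375 by limma). EIN3, the transcription factor of ethylene signalling, had 383, 433 and 309 in pho3, against 357, 329 and 348 in wild type, a log2 difference of 0.11 (SE 0.16, adjusted p of 0.711 by limma). NOL, a chlorophyll b reductase of chlorophyll breakdown, had 147, 141 and 152 in pho3, against 171, 185 and 182 in wild type.

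NOL was the only one of these 4 genes whose groups did not overlap, and its mean was lower in pho3, as for 5.81% of all probe sets. Its log2 difference was -0.29 (SE 0.13, adjusted p of 0.375 by limma; exact permutation p = 0.1, the smallest possible). Over the 6 arrays 0 of the 4 genes were called, and their median log2 difference was 0.41. Without wild-type replicate 1, SAG29 was called higher, as were 4.61% of all probe sets. The 6 listed factors and partners upstream of WRKY53, among them MEKK1 and UPL5, which phosphorylate and ubiquitinate it, had no named probe set. Of 9 described targets of WRKY53 or WRKY6, SAG101 was the only one measured.

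**Figure D3:**
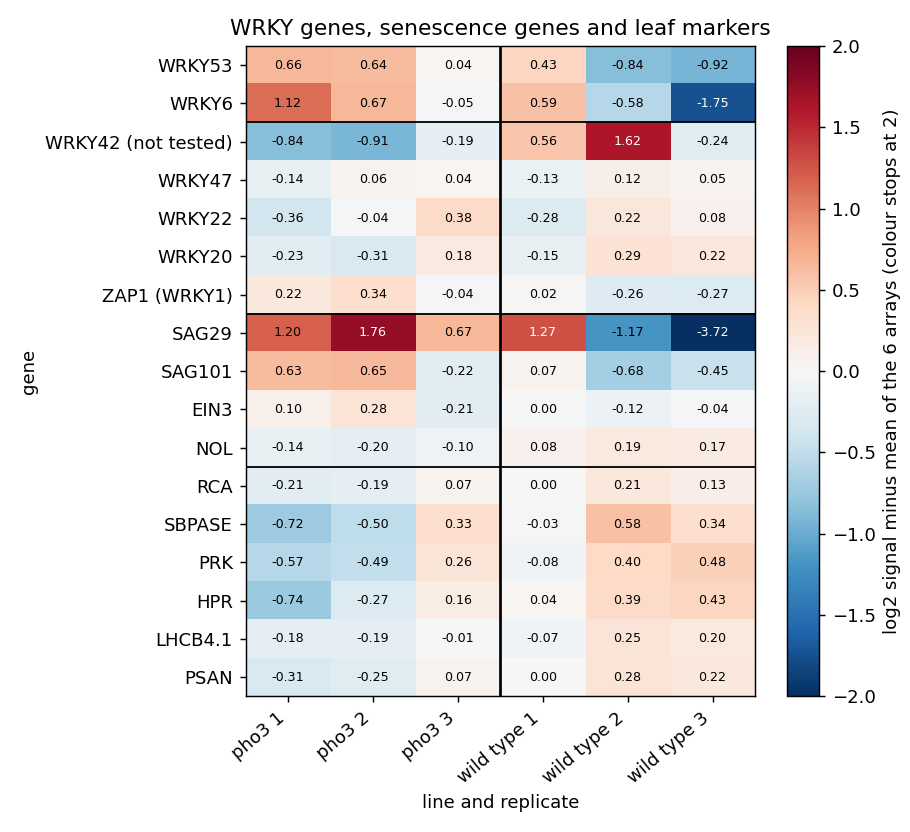
Log2 signal minus the mean of the 6 arrays for WRKY53 and WRKY6, the other WRKY genes, the senescence genes measured and 6 leaf markers, with pho3 arrays left of the wild-type arrays; colours stop at 2. On the array labelled wild-type replicate 1, WRKY53 reads 0.43, WRKY6 0.59 and SAG29 1.27, while on replicate 2 WRKY53 reads -0.84 and WRKY6 -0.58.

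The genes whose pattern was most like each factor were ranked by Pearson's r of log2 signals over the 6 arrays, as a description. For WRKY53 the 5 nearest named genes were AT5G38900, UGT73B5, AT5G15550, AT2G15690 and AT1G21550, with r from 0.998 to 0.999. UGT73B5, a UDP-glycosyltransferase, had 49.8, 51.7 and 17.8 in pho3, against 31.6, 3.00 and 2.56 in wild type, so it was under the floor on 3 arrays, where its values have no order. AT5G38900 had 111, 115 and 67.6 in pho3, against 94.7, 29.0 and 26.5 in wild type. In both, wild-type replicate 1 read above pho3 replicate 3, as in WRKY53. AT1G21550 lay under the floor on wild-type replicates 2 and 3.

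For WRKY6 the 5 nearest were AT5G45000, AT1G48170, AT5G17380, AT4G02550 and AT4G26060, with r from 0.991 to 0.996, values that rest in part on the WRKY6 signals under the floor. AT5G45000 lay under the floor on pho3 replicate 3 and on wild-type replicates 2 and 3. AT4G02550 had 75.1, 66.2 and 36.7 in pho3, against 53.2, 26.0 and 8.58 in wild type, the last 2 under the floor. AT1G48170 had nearly the same pattern over a far smaller range, 113 to 120 in pho3, against 104 to 116 in wild type. WRKY6 and WRKY53 had r = 0.94 with each other, yet 1512 probe sets were more like WRKY53 than WRKY6 was. A high r was common: 15.3% of the other probe sets reached 0.9 with WRKY53 and 10.9% with WRKY6. The 6 points come from the same arrays, 2 of which lay away from their labelled groups.

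**Figure D4:**
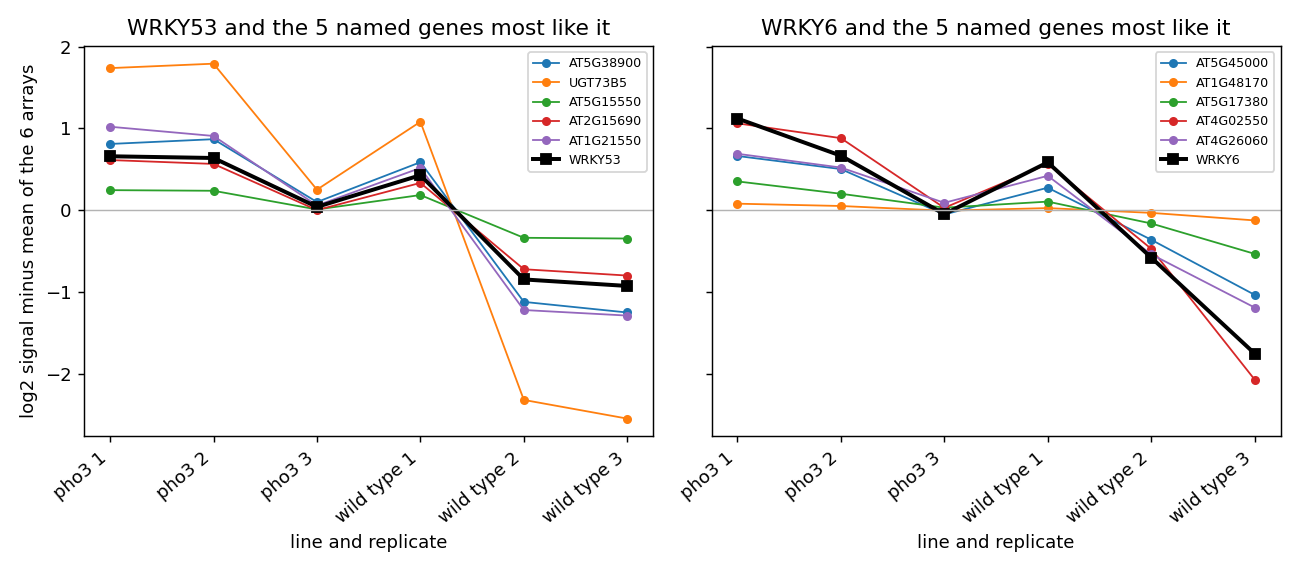
Log2 signal minus the mean of the 6 arrays for WRKY53 and WRKY6 (black squares) and, for each, the 5 named genes of highest Pearson's r, on 3 pho3 and 3 wild-type arrays; lines only join the points of a gene. In each gene the array labelled wild-type replicate 1 reads above pho3 replicate 3 and the other wild-type arrays, by little in AT1G48170. The genes differ in range, from AT1G48170 to UGT73B5, and several points lie under the floor.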

How the data were processed

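Per the submitters' processing notes, signal intensities were made with MAS5, without a version; scanner files and detection calls were not used here. The deposited intensity values are linear, 1 per probe set and array. Groups and replicate numbers came from the titles. Signals were logged to base 2 without pseudocount or further scaling. After 64 control probe sets were left out, a probe set was kept if 3 or more arrays read it no lower than the 40th percentile of that array. limma 3.58.1 under R 4.3.3 tested those kept (eBayes with trend, two-sided, Benjamini-Hochberg over 13983 probe sets, threshold 0.05). The script was checked on simulated data. Folds are ratios of geometric means, and averages are arithmetic. The number of arrays limits the precision.

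Gene names came from the platform annotation, updated by gene number to RefSeq (TAIR10.1): 13513 probe sets had 1 gene, 503 several, and 8730 are unnamed here. Coordinates are left out, as no source used here names the build of the probe annotation.

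The 2 genes, the lists and the alternatives were chosen with earlier results of these data known. Named were both genes, all other WRKY and listed genes with their own probe set, and the 5 named genes most like each. Alternatives covered normalization (quantile, median centring), a pseudocount of 16, the filter, the variance prior, the floor, array weights, the replicate block and arrays left out.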

Additional observations from a re-analysis of the deposited data

How the results depend on the processing

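WRKY53 kept a higher mean in pho3 under all 18 alternatives and WRKY6 under all 17 in which it was tested; it was below the 60th percentile filter. Leaving out 1 array in turn gave log2 differences from 0.65 to 1.33 for WRKY53 and from 0.58 to 1.74 for WRKY6, the lowest without wild-type replicate 3 and the highest without wild-type replicate 1. WRKY53 passed limma's test with array weights (1.30), without wild-type replicate 1 (1.33, also with the filter set anew on the arrays kept, chosen after seeing the data) and without that array and pho3 replicate 3 (1.53). WRKY6 passed with array weights (1.63) and without both arrays (2.06), as fitted with wild-type signals under the floor. Probe sets called higher and lower, 0 and 0 over all arrays, were 2237 and 2026 with array weights, 2547 and 2305 without both arrays, and 655 and 122 with the filter set anew. Leaving out 1 array gave 0 to 644 higher and 0 to 117 lower, all from wild-type replicate 1. Of the 6 WRKY genes tested, 3 were called with array weights, 4 without both arrays, 1 with the filter set anew and 0 to 1 with 1 array left out. Of the 4 listed senescence and defence genes tested, 2, 2, 1 and 0 to 1 were called under the same settings. Over all probe sets tested, array weights called 16% higher and 14.5% lower. Without both arrays 18.2% were called higher and 16.5% lower, and without wild-type replicate 1 alone 4.61% and 0.837%. The filter set anew tested another set of probe sets, and its counts have no share beside them here. The fold of WRKY6 over the floor was 1.33 with the 50th percentile and 3.17 with the 30th, and neither is a bound. The 30th percentile lies under the wild-type mean. With the 50th, wild-type replicate 1 was set to a floor it read above, and pho3 replicate 3 read under that percentile.

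The replicate numbers are shared by both groups, but whether they pair the arrays was not clear. Deviations from the group mean correlated at 0.39, -0.27 and 0.43 for numbers 1, 2 and 3. Of the pho3 arrays only replicate 1 correlated best with the wild-type array of its own number. Matched by number, pho3 read 1.17, 2.80 and 1.95 times wild type for WRKY53. WRKY6 was also higher in pho3 in each pair, with wild-type replicates 2 and 3 under the floor. With the replicate block, the differences stayed at 0.89 for WRKY53 (SE 0.26, limma unadjusted p = 0.0143) and 1.16 for WRKY6 (SE 0.27, limma unadjusted p = 0.00583). The limma adjusted p was 0.192 for both, and 0 probe sets were called.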
